A study of Mus musculus with 36 samples.

Results

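The genes described here encode subunits of the AMPA and NMDA receptors, the ion channels through which glutamate excites neurons. All 9 genes of the rule were found among the 26709 genes of the RNA table by their symbols, namely Gria1, Gria2, Gria3 and Gria4 for AMPA receptors and Grin1, Grin2a, Grin2b, Grin2d and Grin3a for NMDA receptors. They are 9 of the 16209 genes that passed a filter on low values (a mean of 10 or more over the 18 libraries), and none of the 9 was lost to it.

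Cortical neurons came from CD-1 mouse embryos of embryonic day 15, with the tissue of all embryos combined, and were kept for 7 days in vitro. Every culture was silenced with 100 µM AP-5, which blocks NMDA receptors, and 1 µM TTX, which blocks voltage-gated sodium channels. Control cultures remained in both drugs for 3, 8 or 12 h in total and are named controls of 1, 6 and 10 h after the matching stimulation time. The other cultures were silenced for 2 h and then received BDNF (10 ng/ml) or KCl (55 mM) for 1, 6 or 10 h. The sources used here do not state whether AP-5 and TTX were kept during stimulation. BDNF, brain-derived neurotrophic factor, acts on the receptor TrkB, and KCl depolarises the cell membrane. RNA-seq of polyadenylated RNA and ATAC-seq, in which a transposase cuts accessible DNA and the cuts are counted, each had 18 libraries, 2 in each of 9 groups. The study calls the libraries of a group biological replicates, while the labels do not say which cultures they came from, so p-values measure the spread between these libraries. The ATAC columns carry no replicate name, and A and B name them here in the order of the table, tied to no RNA letter.

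AMPA receptors are tetramers that carry most of the fast excitatory current at cortical synapses. The GluA2 subunit, product of Gria2, makes the channel nearly impermeable to calcium once its transcript has been edited. NMDA receptors need the obligatory GluN1 subunit, from Grin1, together with GluN2 or GluN3 subunits, and open when glutamate and glycine are bound and depolarisation has removed a magnesium ion from the pore. In the developing forebrain the GluN2B subunit is abundant early and GluN2A increases with maturation.

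The RNA libraries held 8.51 to 36.7 M reads (M for mega, median 11.6) and the ATAC libraries 1.24 to 6.24 M reads in peaks (median 3.55). The neuronal markers Map2 (19767 to 27548 normalised counts) and Tubb3 (9795 to 17370 normalised counts) were high in all 18 RNA libraries. The cultures also contained RNA of other cells, since the GABAergic marker Gad1 ranged from 2371 to 5215 normalised counts, the astrocyte and radial glia gene Slc1a3 from 6290 to 11230, Mki67 of dividing cells from 1321 to 3508 and Olig1 of the oligodendrocyte lineage from 1839 to 3644. The summed level of 5 microglial markers did not exceed 179.6. Summed markers also moved with the stimuli. The 6 glutamatergic neuron markers summed to 6649 to 7641 in controls, 6104 to 6157 with BDNF at 1 h and 8259 to 8538 with KCl at 6 h, and overlapped the controls in the other stimulated groups. Single markers did not all follow this sum. By the limma test described below, 3 of the 6 were called higher and 3 lower with BDNF at 1 h (40.4% of all genes called). With KCl at 6 h 5 were called higher and 1 lower (66.5% of all genes called). The 6 GABAergic markers summed to 10916 to 12696 in controls and 13163 to 16120 in stimulated libraries. The 5 astrocyte markers summed to 10029 to 12921 in controls, 7733 to 8930.0 with KCl at 6 h and 8426 to 8875 with KCl at 10 h. With BDNF at 10 h they summed to 10003 to 10025, just below the lowest control. The 5 dividing progenitor markers summed to 8612 to 11923 in controls and 8092 to 8563 with BDNF at 6 h. The 6 oligodendrocyte lineage markers summed to 5838 to 6313 in controls. With BDNF they summed to 6394 to 6684 at 1 h and 5583 to 5698 at 6 h, and overlapped the controls at 10 h. With KCl the sums were 4316 to 4824 at 1 h, 6924 to 7347 at 6 h and 6636 to 7379 at 10 h. At 6 h of KCl 2 of these markers were called higher and 3 lower (66.5% of all genes called), so the sum did not stand for each marker. The 2 RNA libraries of KCl at 6 h differed most from each other, with a chi-square per degree of freedom of 39.6 against 2.44 to 10.4 in the other groups, and in no group were they within sampling noise of each other. The part of these shifts in the values of the receptor genes was not tested. In bulk samples such as these, fewer cells of a type and less RNA per cell cannot be told apart.

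Values per library are normalised counts, the read count of a gene divided by the size factor of the library. To compare levels between genes, counts were also divided by the length of the gene's merged exons and scaled to the same total in each library (as TPM), here called the per-length level. In the 6 control libraries Gria1 stood highest with a per-length level of 234 ± 19.5 (SD, n = 6), followed by Gria2 with 144 ± 5.52. Gria4 (48.0 ± 3.40, range 43.4 to 52.2) and Grin2b (47.0 ± 6.31, range 41.7 to 58.4) overlapped and could not be ordered. Grin1 came next with a per-length level of 25.8 ± 2.67, ahead of Gria3 with 17.5 ± 2.04. Grin3a (12.3 ± 0.98, range 10.5 to 13.2) and Grin2d (9.55 ± 1.25, range 8.08 to 11.1) overlapped each other. Grin2a was by far the lowest, with a per-length level of 0.566 ± 0.115. The order depends on the length used. With the longest annotated transcript as the length, Grin1 reached 49.2, above Gria4 at 46.8 and Grin2b at 40.9, while Gria1, Gria2 and Grin2a kept the same ranks at 214, 182 and 0.584.

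**Figure D1:**
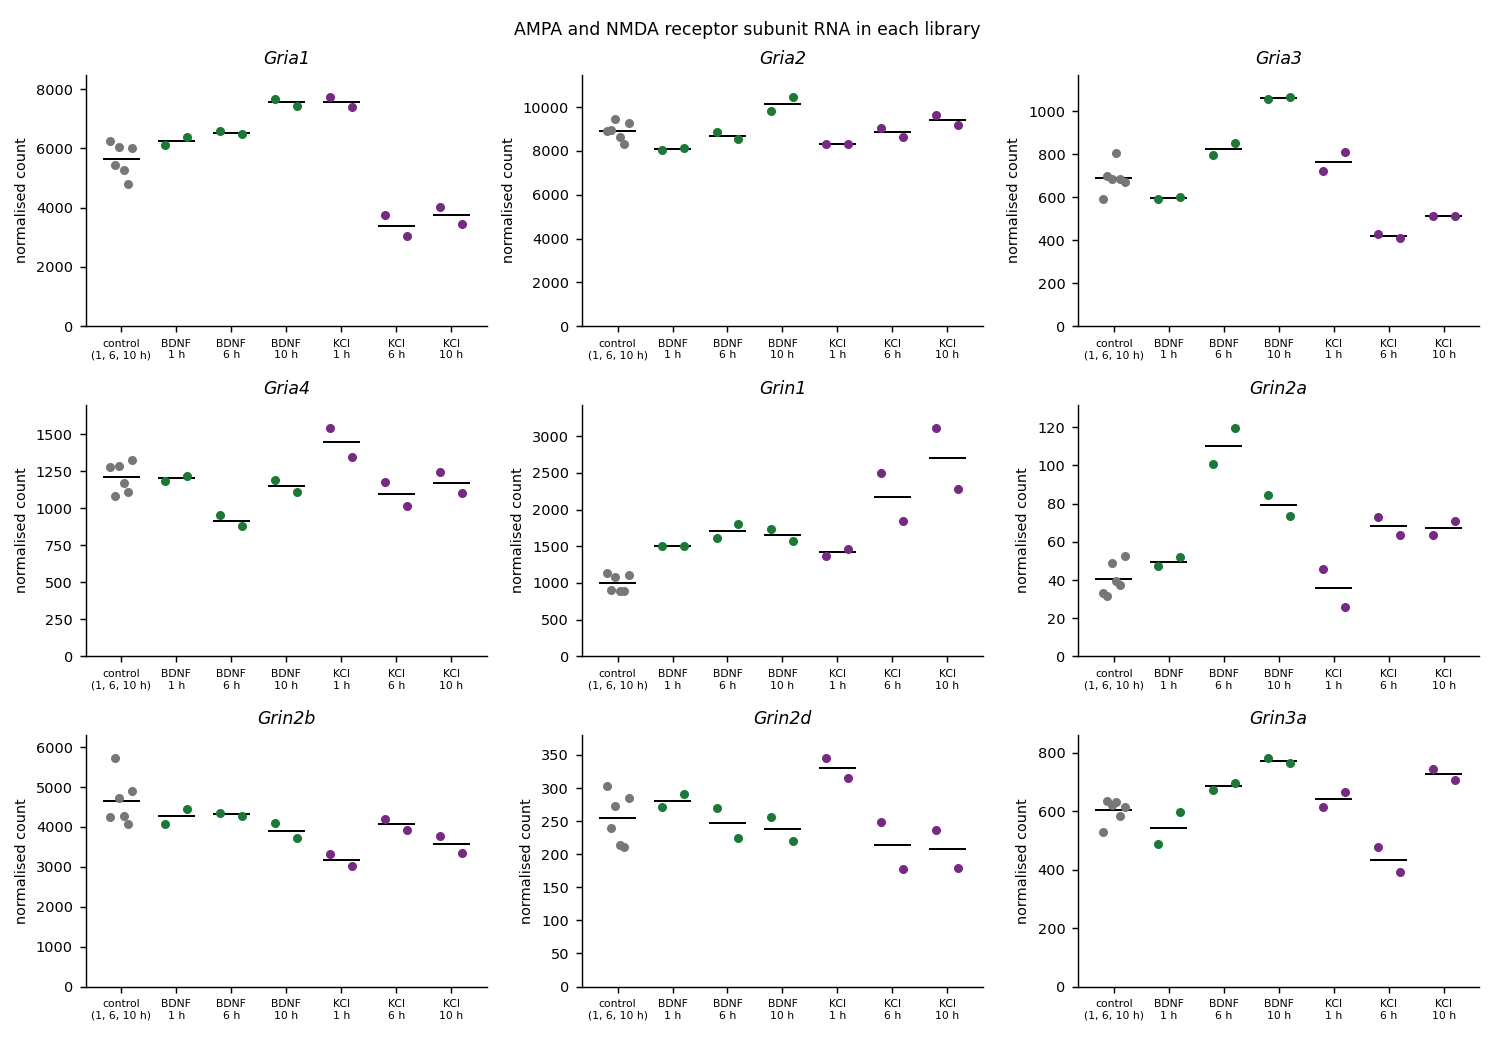
Normalised counts of the 9 receptor genes in each of the 18 RNA libraries, 1 panel per gene, with the vertical axis starting at 0 and the groups of controls, BDNF and KCl at 1, 6 and 10 h along the horizontal axis. Points are libraries and lines are group means; Grin1 lies above its controls (884 to 1136) in all 12 stimulated libraries, and Gria1 and Gria3 lie below theirs with KCl at 6 and 10 h.

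Each stimulated group was compared with all 6 controls by limma on log2(normalised count + 1), with Benjamini-Hochberg adjustment over the 16209 genes, and a gene was called at an adjusted p below 0.1. A log2 fold change is a difference on that scale. BDNF changed 3 of the 9 genes at 1 h, when 40.4% of all tested genes were called, 5 at 6 h (43.3% of all genes) and 7 at 10 h (40.6% of all genes). KCl changed 5 genes at 1 h (54.7% of all genes), 6 at 6 h (66.5% of all genes) and 6 at 10 h (57.2% of all genes). The counts stand near the share called over all genes, except that 7 of 9 at 10 h of BDNF is a larger share than 40.6%, and that count was 5 to 7 when single libraries were left out. Of the genes called, BDNF raised 1 and lowered 2 at 1 h, raised 4 and lowered 1 at 6 h, and raised 6 and lowered 1 at 10 h. KCl raised 4 and lowered 1 at 1 h, raised 2 and lowered 4 at 6 h, and raised 3 and lowered 3 at 10 h. The median log2 fold change of the 9 genes was 0.36 at 10 h of BDNF and -0.19 at 6 h of KCl, against -0.0066 and 0.0075 over all genes.

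**Figure D2:**
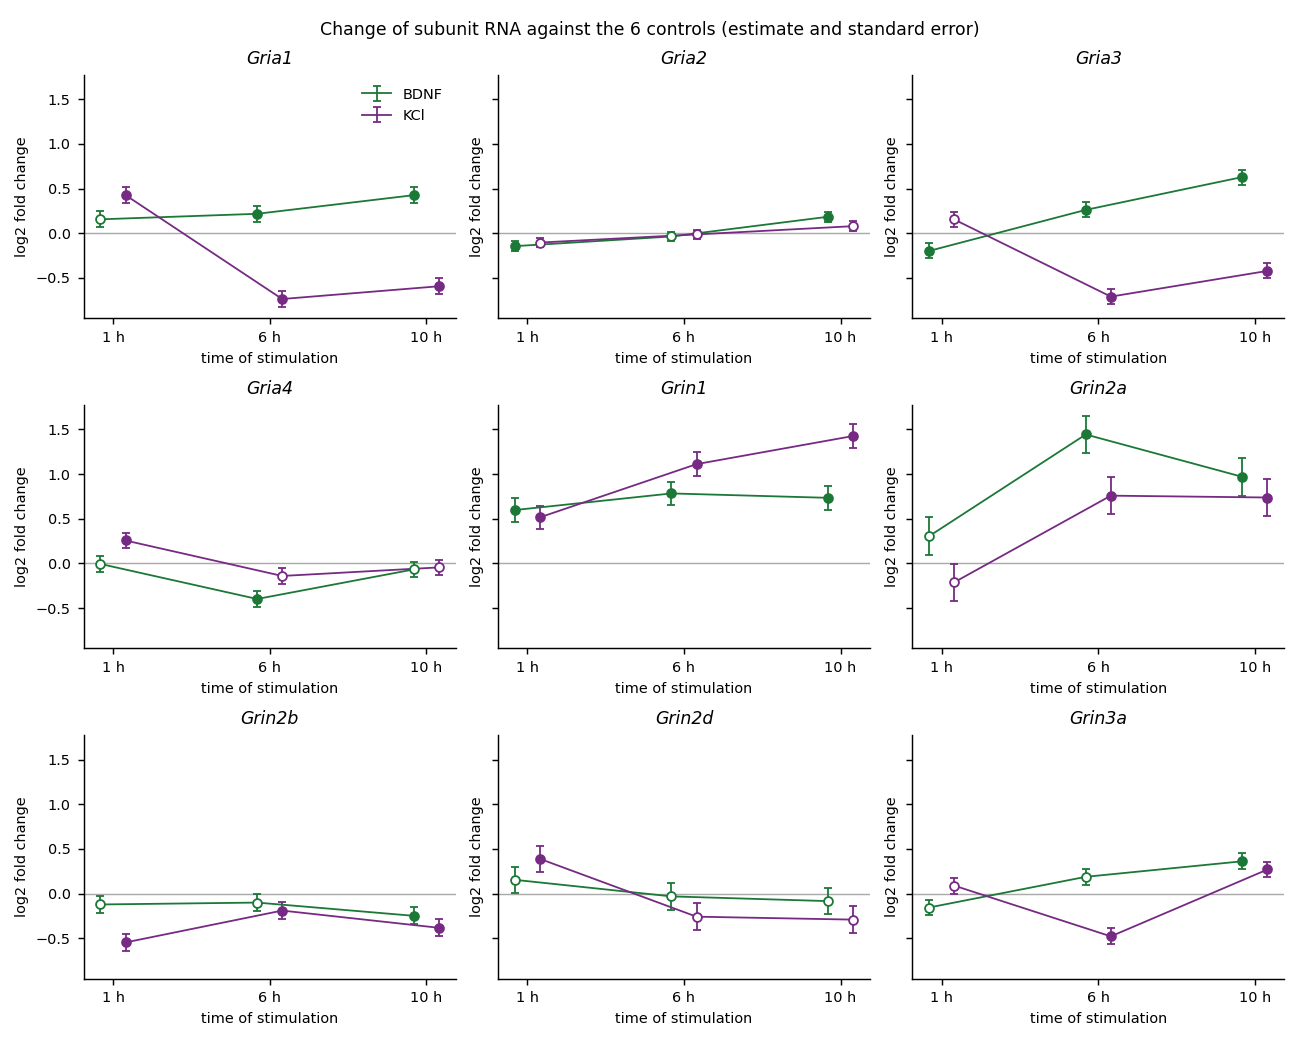
Log2 fold change of each receptor gene against the 6 controls, with its standard error as a bar, at 1, 6 and 10 h of BDNF and of KCl. Filled points passed an adjusted p below 0.1; Grin1 is raised at every time of both stimuli, with its largest change (1.43) at 10 h of KCl, and Gria1 and Gria3 part between the stimuli at 6 and 10 h.

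Gria1 (chr11:57011387-57330244 in mm10, plus strand) encodes GluA1, an AMPA subunit that is added to synapses during plasticity. Its control libraries ranged from 4788 to 6266 normalised counts with a median of 5742. BDNF libraries held 6129.6 and 6400.4 after 1 h, 6590.3 and 6484 after 6 h and 7681 and 7426 after 10 h. KCl libraries held 7725 and 7391 after 1 h, 3749.8 and 3041 after 6 h and 4029.9 and 3448 after 10 h. Both BDNF libraries thus lay above every control at 6 and 10 h, while KCl libraries lay above every control at 1 h and below every control at 6 and 10 h. With BDNF the gene was 1.34-fold higher at 10 h (log2 fold change 0.43, SE 0.09, adjusted p = 0.001195). With KCl it was also 1.34-fold higher at 1 h (0.43, SE 0.09, adjusted p = 5.524e-04) and then fell to 0.601 times the control level at 6 h (-0.74, SE 0.09, adjusted p = 6.735e-07) and 0.663 times at 10 h (-0.59, adjusted p = 1.754e-05). The call with BDNF at 6 h (log2 fold change 0.22, adjusted p = 0.06579) depended on single libraries, and its adjusted p was 0.2606 and 0.2064 without BDNF 6 h library A or B and 0.106 and 0.1061 without control 10 h A or control 6 h B, and against controls of the same time it was 0.1966. Compared directly, BDNF libraries exceeded KCl libraries 1.94-fold at 6 h (adjusted p = 5.414e-07) and 2.03-fold at 10 h (adjusted p = 4.58e-07).

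Gria3 (chrX:41400854-41678601, plus strand), which encodes GluA3, moved in the same directions as Gria1 at 6 and 10 h, from a much lower per-length level. Its control libraries ranged from 589.7 to 806 normalised counts with a median of 684. With BDNF they were 593 and 603 after 1 h, 795 and 850.0 after 6 h and 1058 and 1064 after 10 h. With KCl they were 719.9 and 809 after 1 h, 427 and 412 after 6 h and 513 and 511 after 10 h. At 10 h of BDNF both libraries lay above every control, and at 6 and 10 h of KCl both lay below every control. Gria3 rose 1.55-fold with BDNF at 10 h (log2 fold change 0.63, SE 0.08, adjusted p = 6.542e-06) and fell to 0.612 times the control level with KCl at 6 h (-0.71, SE 0.08, adjusted p = 2.547e-07) and 0.747 times at 10 h (-0.42, adjusted p = 2.678e-04). The BDNF libraries were 1.96-fold above the KCl libraries at 6 h (adjusted p = 9.253e-08) and 2.07-fold above them at 10 h (adjusted p = 6.133e-08). The calls with BDNF at 1 h (-0.20, adjusted p = 0.07549) and 6 h (0.26, adjusted p = 0.01853) overlapped the controls and did not hold against the 2 controls of the same time (adjusted p = 0.5427 and 0.2984). The first also failed without BDNF 1 h A or B (adjusted p = 0.3067 and 0.2108), control 1 h B (0.1045) or control 6 h B (0.1376), by DESeq2 (0.1204) and with no filter (0.1184), and the second without BDNF 6 h B (0.2005).

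Gria4 (chr9:4417896-4796234, minus strand) encodes GluA4, a subunit with fast channel kinetics. Control libraries ranged from 1079 to 1327 normalised counts, with a median of 1226. Libraries with BDNF held 1186 and 1217 after 1 h, 953 and 879 after 6 h and 1192 and 1112 after 10 h, so that only the 6 h pair lay below the controls. KCl gave 1543 and 1345 at 1 h, both above the controls, then 1179.8 and 1015 at 6 h and 1242 and 1101 at 10 h. The gene fell to 0.759 times the control level with BDNF at 6 h (log2 fold change -0.40, SE 0.08, adjusted p = 8.908e-04). The higher level with KCl at 1 h (0.26, SE 0.08, adjusted p = 0.01591) rested on library A, without which it was 0.16 (adjusted p = 0.2793).

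Gria2 (chr3:80681450-80802835, minus strand) encodes GluA2 and had the narrowest range of changes among the 9 genes. The controls ranged from 8319 to 9480.3 with a median of 8924. BDNF libraries held 8035 and 8117 after 1 h, 8847 and 8563 after 6 h and 9847 and 10447 after 10 h, and KCl libraries held 8301 and 8306 after 1 h, 9053 and 8642 after 6 h and 9657 and 9207 after 10 h. The log2 fold changes against controls ran from -0.14 to 0.18 with an SE of 0.05. With BDNF, Gria2 passed the test at 1 h (-0.14, adjusted p = 0.04735) and at 10 h (0.18, adjusted p = 0.01321), but the first call did not hold without either BDNF 1 h library (adjusted p = 0.2462 without A and 0.1679 without B) or against controls of the same time (0.1804) and the second not without BDNF 10 h B (0.2026). With KCl it passed at none of the 3 times (adjusted p = 0.1253, 0.8556 and 0.2387), nor between the stimuli at any time.

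Grin1 (chr2:25291181-25319187, minus strand) showed the only pattern in which all 12 stimulated libraries lay above all 6 controls. The controls ranged from 884 to 1136 normalised counts with a median of 988. BDNF libraries held 1501 and 1506 after 1 h, 1619.7 and 1805 after 6 h and 1739 and 1570.4 after 10 h. KCl libraries held 1374 and 1468 after 1 h, 2503 and 1839 after 6 h and 3118 and 2285 after 10 h. BDNF raised Grin1 1.51-fold at 1 h (log2 fold change 0.60, SE 0.13, adjusted p = 0.002137), 1.72-fold at 6 h (0.78, SE 0.13, adjusted p = 2.202e-04) and 1.66-fold at 10 h (0.73, SE 0.13, adjusted p = 5.072e-04). KCl raised it 1.43-fold at 1 h (0.52, adjusted p = 0.004035), 2.16-fold at 6 h (1.11, adjusted p = 1.895e-06) and 2.69-fold at 10 h (1.43, adjusted p = 2.02e-07). These 6 calls held under every alternative run at the same threshold. The stimuli differed at 10 h, where the level with BDNF was lower (log2 difference -0.69, SE 0.16, adjusted p = 0.002993), and at 6 h the difference of -0.33 missed the threshold by limma (adjusted p = 0.1039) and passed it by edgeR (0.08987), by DESeq2 (0.05046), under TMM scaling (0.098) and without KCl 6 h B (-0.55, adjusted p = 0.02304). Grin1os, an annotated antisense gene, overlaps exons of Grin1 and had a mean of 49.8 normalised counts. No source used here says whether the counting used strand, so reads of this pair could not be told apart.

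Grin2a (chr16:9567898-9995560, minus strand), the GluN2A gene, was the most weakly expressed of the 9 and had the widest errors. Its control libraries ranged from 31.8 to 52.6 normalised counts, with a median of 38.3. BDNF libraries held 47.1 and 51.9 after 1 h, 101 and 119.9 after 6 h and 84.8 and 73.4 after 10 h, and KCl libraries held 45.7 and 25.7 after 1 h, 72.8 and 63.7 after 6 h and 63.6 and 70.8 after 10 h. At 1 h both stimuli overlapped the controls, and at 6 and 10 h both libraries of either stimulus lay above them. The rise was 2.72-fold with BDNF at 6 h (log2 fold change 1.44, SE 0.21, adjusted p = 1.249e-05) and 1.96-fold at 10 h (0.97, SE 0.21, adjusted p = 0.001214). With KCl it was 1.69-fold at 6 h (0.76, SE 0.21, adjusted p = 0.003406) and 1.67-fold at 10 h (0.74, adjusted p = 0.005577). These folds compare means on the log2 scale, on which the pseudocount of 1 makes them smaller. BDNF exceeded KCl at 6 h (log2 difference 0.68, SE 0.26, adjusted p = 0.02991), but not without BDNF 6 h B (adjusted p = 0.1733) or KCl 6 h B (0.1332).

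Grin2b (chr6:135713233-136173511, minus strand), the GluN2B gene, was below the controls wherever it was called against them. Controls ranged from 4083 to 5732 normalised counts with a median of 4501, and control 1 h B was the highest. KCl libraries held 3328 and 3023 after 1 h, 4205 and 3921 after 6 h and 3771 and 3348 after 10 h, and the pairs at 1 and 10 h lay below every control. BDNF libraries held 4071 and 4452 after 1 h, 4359 and 4282 after 6 h and 4089 and 3717 after 10 h, each pair overlapping the controls. KCl lowered the gene to 0.685 times the control level at 1 h (log2 fold change -0.55, SE 0.10, adjusted p = 9.058e-05) and 0.768 times at 10 h (-0.38, SE 0.10, adjusted p = 0.00256). At 1 h its level was higher with BDNF than with KCl (log2 difference 0.42, SE 0.12, adjusted p = 0.007358). The smaller decrease with KCl at 6 h (-0.19, adjusted p = 0.09488) did not pass without either KCl 6 h library (adjusted p = 0.142 without A and 0.4082 without B) or without control 1 h B (0.1564), control 10 h B (0.1455) or control 6 h A (0.1294), nor against controls of the same time (0.3217) or with no filter on low values (0.1164). That with BDNF at 10 h (-0.25, adjusted p = 0.0536) did not pass without BDNF 10 h B (0.3786) or against controls of the same time (0.2634). Gm26653, an antisense gene that overlaps Grin2b exons, had a mean of 6.34 normalised counts.

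Grin3a (chr4:49661611-49845744, minus strand) encodes GluN3A, a subunit of juvenile NMDA receptors that lowers their calcium entry. Its controls ranged from 528 to 635 normalised counts with a median of 619. BDNF libraries held 488 and 598 after 1 h, 674 and 698 after 6 h and 783 and 764 after 10 h. KCl libraries held 615 and 667 after 1 h, 477 and 391 after 6 h and 744 and 708 after 10 h, so that the pair was below every control at 6 h and above every control at 10 h. With BDNF at 6 h both libraries lay above every control. The log2 fold change of 0.19 missed the threshold by limma (adjusted p = 0.1038). It passed by edgeR (0.08382) and by limma without control 1 h B (0.09604) or control 6 h B (0.09881). The gene rose 1.29-fold with BDNF at 10 h (log2 fold change 0.36, SE 0.09, adjusted p = 0.003477). With KCl it fell to 0.718 times the control level at 6 h (-0.48, SE 0.09, adjusted p = 8.231e-05) and was 1.21-fold above it at 10 h (0.27, adjusted p = 0.01481), a call that failed without KCl 10 h A (0.23, adjusted p = 0.1276). At 6 h the level with BDNF was 1.59 times that with KCl (adjusted p = 2.704e-05).

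Grin2d (chr7:45831883-45878378, minus strand) encodes GluN2D, which in the cortex is typical of interneurons. Controls ranged from 211 to 302 normalised counts (median 256). BDNF libraries held 271 and 291 after 1 h, 270.2 and 225 after 6 h and 257 and 220.2 after 10 h, all inside that range, and none of the 3 times passed the test. KCl libraries held 346 and 315 at 1 h, both above the controls, then 249 and 178 at 6 h and 237 and 179 at 10 h. The increase at 1 h of KCl (log2 fold change 0.39, SE 0.15, adjusted p = 0.03553) did not hold without library A (adjusted p = 0.2283) or against controls of the same time (0.29, adjusted p = 0.2555). At 6 and 10 h of KCl the estimates were -0.26 and -0.29 (adjusted p = 0.1397 and 0.1102) and passed without KCl 6 h A (-0.50, adjusted p = 0.02197) or KCl 10 h A (adjusted p = 0.04241).

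Compared directly, BDNF and KCl differed for 5 of the 9 genes at 1 h (42.8% of all genes), 5 at 6 h (57.3% of all genes) and 3 at 10 h (45% of all genes). The 3 genes at 10 h were Gria1 and Gria3, higher with BDNF, and Grin1, higher with KCl. At 1 h Grin2b was higher with BDNF, and Gria1, Gria3, Gria4 and Grin3a were higher with KCl, by log2 differences of -0.24 to -0.35, none of which held without every library in turn. For Gria3 it was KCl 1 h B whose removal ended the call (adjusted p = 0.1192), and for Gria1 the removal of any of the 4 libraries did (adjusted p = 0.1206 to 0.2369). For Gria4 it was BDNF 1 h A (0.1963), BDNF 1 h B (0.125) or KCl 1 h A (0.3485), and for Grin3a BDNF 1 h A (0.6232) or KCl 1 h B (0.3358). The Grin3a call was also lost by edgeR (0.1157), by DESeq2 (0.1526) and with no filter (0.1194). At 6 h Gria4 was higher with KCl (-0.26, adjusted p = 0.04333), though not without BDNF 6 h B (0.2328) or KCl 6 h A (0.3071).

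Between neighbouring times, KCl at 6 h differed from KCl at 1 h for 8 of the 9 genes (59.6% of all genes), all except Gria2. Gria1 fell by 1.16 on the log2 scale (SE 0.11, adjusted p = 3.765e-08) and Gria3 by 0.86 (SE 0.10, adjusted p = 4.571e-07), while Grin2a rose by 0.97 (SE 0.26, adjusted p = 0.003008) and Grin1 by 0.59 (SE 0.16, adjusted p = 0.00545). From 6 to 10 h of KCl, 2 of the 9 genes differed (22.5% of all genes), Grin3a by 0.75 (SE 0.11, adjusted p = 1.603e-04) and Gria3 by 0.29 (SE 0.10, adjusted p = 0.06096). From 1 to 6 h of BDNF, 4 of the 9 differed (33.6% of all genes), with Grin2a up by 1.14 (adjusted p = 0.002001), Gria3 by 0.46 (adjusted p = 0.001934) and Grin3a by 0.34 (adjusted p = 0.02252) and Gria4 down (-0.39, adjusted p = 0.007261). From 6 to 10 h of BDNF limma called 0 of the 9 (0.216% of all genes), with 3 at an unadjusted p below 0.05, and edgeR called 0 and DESeq2 1. Among the controls, limma, edgeR and DESeq2 each called 0 of the 9 genes at 6 h against 1 h (0% of all genes) and 0 at 10 h against 1 h (0% of all genes). Unadjusted p-values below 0.05 numbered 1 and 0 by limma, 1 and 0 by edgeR and 0 and 0 by DESeq2.

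The shares of the subunits in their receptor class were described from per-length levels, without a test. In controls Gria1 made up 52.7 ± 1.71% of the AMPA subunit level, Gria2 32.5 ± 1.21%, Gria4 10.8 ± 0.465% and Gria3 3.97 ± 0.585% (SD, n = 6). At 6 h of KCl, whose libraries differed most (Gria1 per-length levels of 139.9 and 96.3, Grin1 of 58.2 and 36.3), the mean shares were 41.6% for Gria1 and 42.3% for Gria2, and at 10 h 42.2% and 41.5%. The ratio of Gria2 to Gria1 was 0.618 ± 0.0418 in controls. It averaged 0.427 at 1 h, 1.02 at 6 h and 0.985 at 10 h of KCl, and 0.501, 0.518 and 0.522 at the same times of BDNF. KCl therefore moved the ratio to either side of the controls with time, whereas all 3 BDNF means lay below them.

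**Figure D3:**
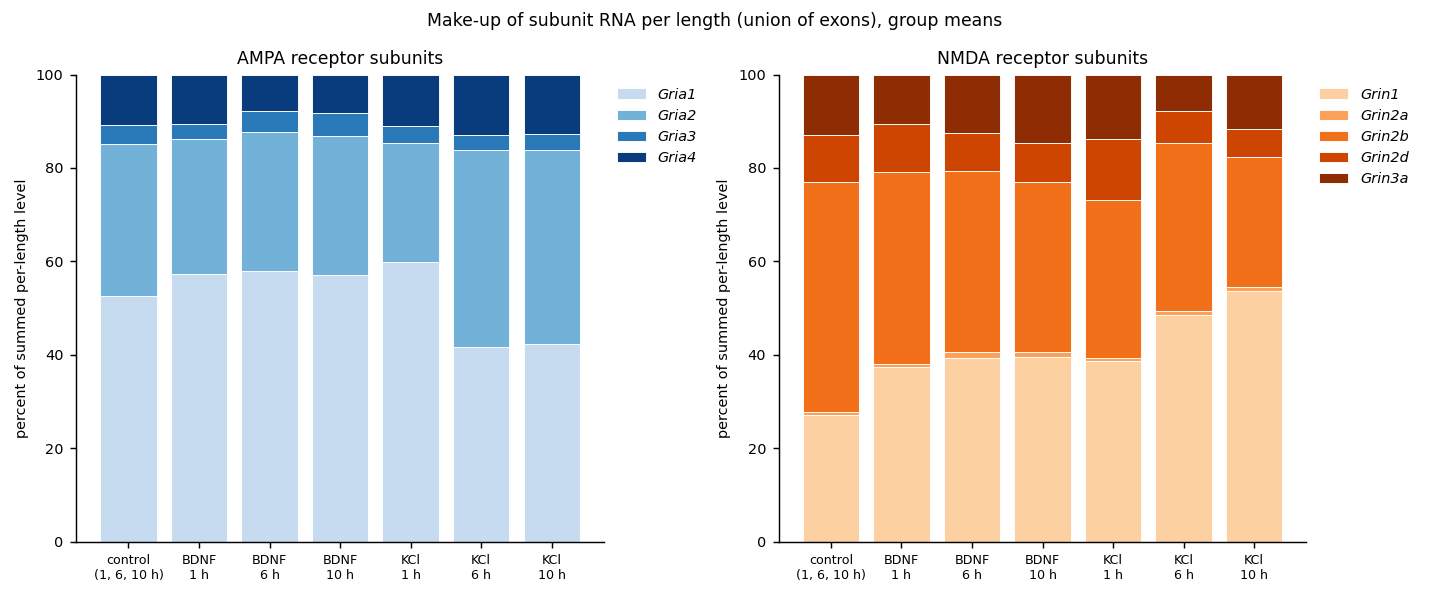
Mean share, in percent, of each subunit gene in the summed per-length level of the 4 AMPA genes and of the 5 NMDA genes, as stacked bars for the controls and the 6 stimulated groups. The Grin1 segment grows from 27.1% in controls to 53.7% at 10 h of KCl as the Grin2b segment shrinks from 49.3% to 27.9%, and the Gria1 segment is smallest at 6 h of KCl (41.6%).

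In the NMDA class, Grin2b made up 49.3 ± 3.54% of the level in controls, Grin1 27.1 ± 2.81%, Grin3a 13.0 ± 1.24%, Grin2d 10.0 ± 1.17% and Grin2a 0.595 ± 0.114%. At 10 h Grin1 averaged 39.6% with BDNF and 53.7% with KCl, and Grin2b 36.5% and 27.9%. The ratio of Grin1 to the sum of Grin2a, Grin2b and Grin2d was 0.455 ± 0.0627 in controls, and averaged 0.717, 0.814 and 0.865 at 1, 6 and 10 h of BDNF and 0.820, 1.12 and 1.55 with KCl. The ratio of Grin2b to Grin2a, 86.2 ± 23.3 in controls (67.3 to 130), averaged 28.5 at 6 h of BDNF and 43.1 at 6 h of KCl. This ratio rests on the low counts of Grin2a. The summed AMPA level was 4.67 ± 0.278 times the summed NMDA level in controls. It averaged 4.35, 4.16 and 5.10 times at 1, 6 and 10 h of BDNF, and 5.53, 2.95 and 2.86 times at 1, 6 and 10 h of KCl. The sizes of these shares and ratios depend on the length used. With the longest transcript as the length, the mean control level was 49.2 for Grin1 and 40.9 for Grin2b. Grin1, not Grin2b, then had the highest mean of the NMDA genes. The direction against controls was the same with that length for 75 of 78 shares and ratios. The exceptions were the Grin2d share at 1 h of BDNF, the Grin3a share at 1 h of KCl and the AMPA to NMDA ratio at 10 h of BDNF, so no direction is drawn from that last ratio.

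Genes that work with these receptors were counted by lists. The counts stand beside 40.4, 43.3 and 40.6% of all genes called with BDNF at 1, 6 and 10 h and 54.7, 66.5 and 57.2% with KCl. Of 20 AMPA receptor auxiliary and assembly genes, BDNF raised 3, 9 and 9 and lowered 5, 5 and 6 at 1, 6 and 10 h, while KCl raised 6, 5 and 5 and lowered 4, 10 and 7. Shisa6, an auxiliary subunit gene, was 1.99-fold higher with BDNF at 6 h (log2 fold change 0.99, SE 0.10, adjusted p = 1.728e-07), and Shisa8 was 1.99-fold higher at 1 h (0.99, SE 0.23, adjusted p = 0.001678). With KCl, Shisa7 fell to 0.409 times the control level at 6 h (adjusted p = 3.942e-08) and Prrt1, another AMPA receptor partner, to 0.498 times at 10 h (adjusted p = 7.393e-08). Of 20 anchoring and trafficking genes, BDNF raised 8, 10 and 8 and lowered 3, 5 and 3, and KCl raised 10, 10 and 11 and lowered 3, 5 and 3, against the same shares of all genes. The list included the neuronal pentraxins, secreted proteins that cluster AMPA receptors. Nptx1 went from 561 ± 70.2 normalised counts in controls to a mean of 6525 with BDNF at 1 h (11.7-fold, adjusted p = 5.93e-16), and Nptx2 from 198 ± 16.3 to 1842 (9.27-fold, adjusted p = 5.653e-14). With KCl, Nptx2 averaged 1050.2 at 6 h (5.24-fold, adjusted p = 4.931e-12) and Grasp, a scaffold gene of metabotropic receptors, was 3.49-fold higher at 6 h (adjusted p = 7.188e-08).

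The 9 other ionotropic glutamate receptor genes gave 2, 4 and 4 raised and 0, 2 and 2 lowered with BDNF at 1, 6 and 10 h, and 5, 0 and 2 raised and 1, 3 and 2 lowered with KCl. Over all genes 40.4, 43.3 and 40.6% were called with BDNF and 54.7, 66.5 and 57.2% with KCl, so that 3 of 9 at 6 h of KCl is a smaller share than the 66.5% of all genes. Grik4, a kainate receptor gene, was 1.87-fold higher with BDNF at 6 h (adjusted p = 3.239e-07) and Grik1, another, 1.90-fold higher with KCl at 1 h (adjusted p = 1.336e-08). Grin2c, the remaining GluN2 gene, was low in controls (18.7 ± 5.16 normalised counts) and averaged 38.6 with BDNF at 6 h (adjusted p = 0.007419) and 45.7 with KCl at 1 h (adjusted p = 0.00115). Of 8 metabotropic receptor genes, 7 passed the filter, of which BDNF raised 1, 2 and 1 and lowered 1, 4 and 3, and KCl raised 3, 2 and 3 and lowered 1, 4 and 4, against these same shares of all genes. Grm3 fell to 0.465 times the control level with BDNF at 6 h (adjusted p = 6.843e-07). Grm4 fell to 0.270 times with KCl at 6 h (adjusted p = 4.052e-11) and Grm2 was 2.91-fold higher with KCl at 10 h (adjusted p = 2.39e-09). Of 3 genes listed for their relation to RNA editing (Adar, Adarb1 and Adarb2), BDNF raised 2, 0 and 0 and lowered 0, 1 and 0. KCl raised 2, 1 and 2 and lowered 0, 0 and 1, against the same shares. Editing itself was not tested. Adarb1, whose product edits the Gria2 transcript, was 1.28-fold higher with KCl at 1 h (adjusted p = 7.287e-04). Adar was 1.40-fold higher with BDNF at 1 h (adjusted p = 7.555e-06), and Adarb2 was 0.748 times the control level with BDNF at 6 h (adjusted p = 0.0109) and 1.42-fold above it with KCl at 10 h (adjusted p = 0.001741).

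For each receptor gene the 2 genes with the most similar log2 values over the 18 RNA libraries were found among those passing the filter, with Pearson's r as a description only, since the libraries share stimuli. Gria1 was nearest to Dach2 (r = 0.956) and Dgkb (0.950), Gria3 to Cnpy3 (0.946) and Gart (0.932), Gria4 to Pfkm (0.877) and Dlg2 (0.868), and Gria2 to Wrb (0.832) and Phf2os1 (0.814). Grin1 was nearest to Dgkz (0.967) and Klc2 (0.964), Grin2a to Ndufaf4 (0.942) and Tars (0.924), Grin2d to Plk5 (0.914) and Syt7 (0.912), Grin2b to Srgap2 (0.879) and Chd9 (0.871), and Grin3a to Robo1 (0.870) and Nipa1 (0.868). Gria2, whose values varied least, had the weakest nearest gene.

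Open chromatin was examined in the 58177 ATAC peaks. The gene bodies of the 9 genes and 10 kb on either side held 56 peaks, of which 55 passed a mean count of 10. There were 15 peaks at Grin2b, 13 at Gria4, 7 at Grin2a, 6 each at Gria1 and Grin3a, 4 at Gria2, 3 at Grin2d and 1 each at Gria3 and Grin1. By position, 42 were intronic, 10 lay at a promoter (1000 bp upstream to 100 bp downstream of an annotated start), 2 in exons and 2 in the flanks. Gria3 and Grin2d had no promoter peak. The Grin2d peak chr7:45872595-45873092 also covers a promoter of Kdelr1, and the Grin2d flanking peak a promoter of Grwd1 and Gm45441. Values are counts scaled by LOESS offsets, tested by edgeR's quasi-likelihood test with Benjamini-Hochberg adjustment over 56383 peaks and called at an adjusted p below 0.1.

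With BDNF, 12 of the 55 peaks opened further and 2 closed at 1 h, against 12.5% and 4.78% of all peaks. At 6 h 7 opened and 0 closed (8.88% and 1.75% of all peaks), and at 10 h 4 opened and 0 closed (7.46% and 1.9% of all peaks). With KCl, 2 opened and 2 closed at 1 h (5.29% and 3.05% of all peaks), 2 opened and 1 closed at 6 h (5.44% and 2.06% of all peaks), and 4 opened and 1 closed at 10 h (5.91% and 1.96% of all peaks). BDNF and KCl differed at 10 of the 55 peaks at 1 h (14.9% of all peaks), 3 at 6 h (3.63% of all peaks) and 1 at 10 h (1.99% of all peaks). All 10 at 1 h were more open with BDNF. Direct comparisons of peaks between the stimuli, here and below, come from the main fit only. They were not run with a library left out or under another scaling. The counts against controls moved with single libraries. Without BDNF 1 h B the count at 1 h of BDNF was 6 and without BDNF 1 h A it was 9, and at 1 h of KCl it was 0 without KCl 1 h B and 2 without KCl 1 h A.

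**Figure D4:**
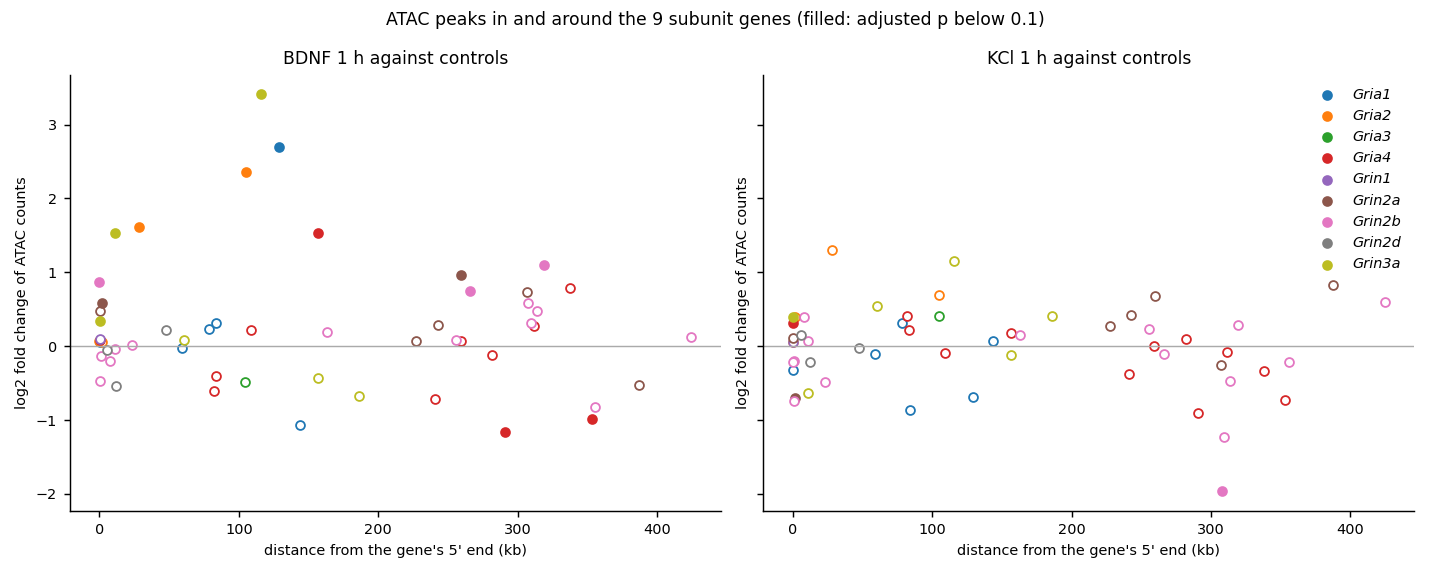
Log2 fold change against the 6 controls of the 55 peaks at the 9 genes at 1 h of BDNF and 1 h of KCl, plotted against the distance in kb from the 5′ end of the gene. Filled points passed an adjusted p below 0.1; the largest changes with BDNF, 3.41, 2.70 and 2.35, lie over 100 kb into Grin3a, Gria1 and Gria2, and the point of -1.96 with KCl lies 307.5 kb into Grin2b.

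The 3 peaks with the largest changes with BDNF lay in introns of Grin3a, Gria1 and Gria2. Their sequences, up to 300 bases around the centre of each peak on the strand of the gene in GRCm38.p6 (the sequence of mm10), are shown because they carry the main chromatin changes at these genes. Both strands were searched for the AP-1 motif TGANTCA, bound by Fos and Jun proteins, the cAMP response element (CRE) TGACGTCA, its half-site TGACG, which is contained in the full CRE, and the EGR motif GCGTGGGCG, and matches are in capitals. In the central 300 bases of the 56383 tested peaks, 16.3% held the AP-1 motif, 0.999% the CRE, 16.7% the half-site and 0.435% the EGR motif. In the lines that follow, the Grin3a window is chr4:49730057-49730356, the Gria1 window chr11:57140347-57140646 and the Gria2 window chr3:80697670-80697969.
Grin3a intron: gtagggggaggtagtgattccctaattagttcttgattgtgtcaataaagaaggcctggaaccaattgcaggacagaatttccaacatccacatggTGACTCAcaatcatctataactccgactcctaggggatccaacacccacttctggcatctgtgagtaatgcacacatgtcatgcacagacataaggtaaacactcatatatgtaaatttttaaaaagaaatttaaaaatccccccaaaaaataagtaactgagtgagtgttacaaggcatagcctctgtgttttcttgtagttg
Gria1 intron: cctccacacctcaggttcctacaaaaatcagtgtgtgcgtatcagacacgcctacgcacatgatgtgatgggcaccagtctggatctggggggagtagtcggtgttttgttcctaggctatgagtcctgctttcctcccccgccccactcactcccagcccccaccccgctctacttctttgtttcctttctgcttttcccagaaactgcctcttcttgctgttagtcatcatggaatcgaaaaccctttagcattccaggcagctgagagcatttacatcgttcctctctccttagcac
Gria2 intron: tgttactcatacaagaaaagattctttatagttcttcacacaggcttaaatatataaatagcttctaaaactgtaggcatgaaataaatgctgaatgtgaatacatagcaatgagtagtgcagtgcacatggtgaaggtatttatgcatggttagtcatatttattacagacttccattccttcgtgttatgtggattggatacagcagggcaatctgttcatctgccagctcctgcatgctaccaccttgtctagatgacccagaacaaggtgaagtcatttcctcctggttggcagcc
The Grin3a window held 1 AP-1 match, TGACTCA at bases 97 to 103, and the Gria1 and Gria2 windows held none of the motifs searched.

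The Grin3a intronic peak (chr4:49730056-49730358) lies 115.5 kb from the 5′ end of the gene and at -10.96 kb (upstream) from the nearest annotated start within it. Its 6 controls held 1.47 to 8.18 scaled counts with a mean of 4.29 ± 2.34 (SD, n = 6). BDNF libraries held 39.0 and 56.8 after 1 h, 32.6 and 26.5 after 6 h and 25.3 and 26.0 after 10 h. KCl libraries held 11.2 and 9.06 after 1 h, 15.8 and 27.8 after 6 h and 18.3 and 22.0 after 10 h. All 12 stimulated libraries exceeded the controls, with the BDNF libraries highest at 1 h and the KCl libraries lowest at 1 h. The log2 fold changes with BDNF were 3.41 (SE 0.40, adjusted p = 2.481e-12), 2.70 (SE 0.42, adjusted p = 1.584e-07) and 2.51 (SE 0.47, adjusted p = 2.157e-05). With KCl the peak passed at 6 h (2.15, adjusted p = 0.002283) and 10 h (2.16, adjusted p = 6.054e-04) and not at 1 h. BDNF exceeded KCl at 1 h by 2.25 (adjusted p = 3.257e-04). Grin3a RNA at 1 h of BDNF, printed above, was not called.

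The Gria1 intronic peak (chr11:57140318-57140676), 129.1 kb from the 5′ end of the gene and at -36.02 kb (upstream) from the nearest annotated start, opened with BDNF at each time. Controls held 2.98 to 8.95 scaled counts (mean 5.95 ± 1.96), and BDNF libraries 31.8 and 48.8 after 1 h, 31.8 and 27.2 after 6 h and 20.0 and 37.4 after 10 h. KCl libraries held 3.46 and 4.02 after 1 h, 11.8 and 7.56 after 6 h and 5.98 and 3.78 after 10 h, each pair overlapping the controls. The log2 fold changes with BDNF were 2.70 (adjusted p = 2.844e-08), 2.24 (adjusted p = 1.602e-05) and 2.22 (adjusted p = 1.151e-04), the last of which failed without BDNF 10 h B (1.62, adjusted p = 0.1522). The peak was more open with BDNF than with KCl at 1 h (3.38, adjusted p = 4.459e-06) and at 10 h (2.56, adjusted p = 0.01482).

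The Gria2 intronic peak (chr3:80697576-80698063) lies 105.0 kb from the 5′ end of the gene, and its controls were spread widely, from 0.852 to 19.8 scaled counts (mean 8.26 ± 6.53). BDNF libraries held 38.2 and 45.0 after 1 h, 26.9 and 22.9 after 6 h and 15.9 and 20.2 after 10 h, so the 10 h pair overlapped the controls. KCl libraries held 18.1 and 8.99 after 1 h, 25.0 and 20.3 after 6 h and 39.9 and 34.6 after 10 h. The largest values thus came at 1 h of BDNF and at 10 h of KCl. The log2 fold change was 2.35 at 1 h of BDNF (adjusted p = 3.742e-07) and 2.19 at 10 h of KCl (adjusted p = 4.442e-05). The calls at 6 h of BDNF (1.60, adjusted p = 0.003066) and of KCl (1.52, adjusted p = 0.02853) did not hold against controls of the same time (adjusted p = 0.4665 and 0.5661), and the latter not without KCl 6 h A (1.32, adjusted p = 0.4125). At 1 h BDNF exceeded KCl by 1.66 (adjusted p = 0.01099).

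**Figure D5:**
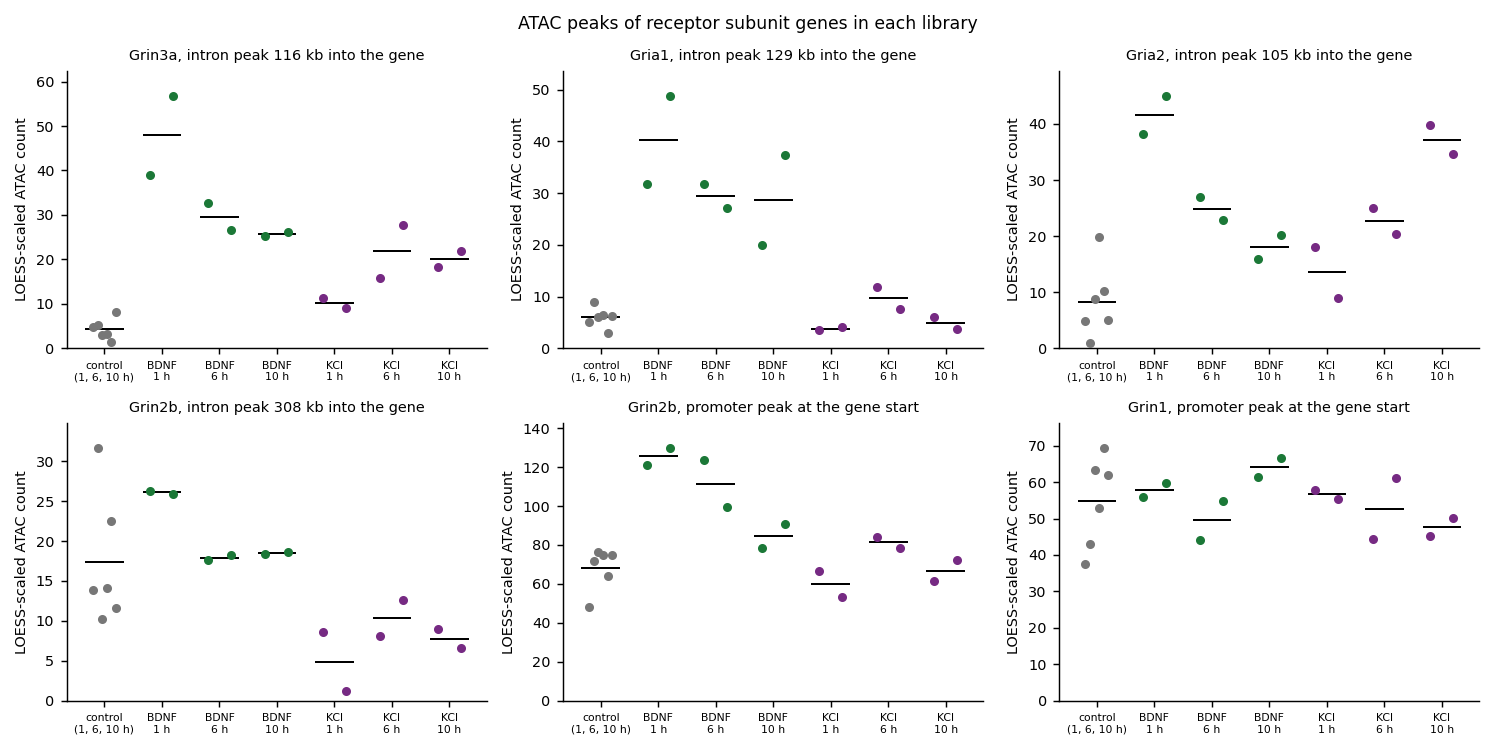
LOESS-scaled counts of 6 ATAC peaks in each of the 18 ATAC libraries, with the vertical axis from 0, points for libraries and lines for group means. The Grin3a, Gria1 and Gria2 intronic peaks reach 39.0 to 56.8, 31.8 to 48.8 and 38.2 to 45.0 at 1 h of BDNF, and the Grin1 promoter peak stays between 37.5 and 69.3 in all libraries.

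With KCl, the largest closing was at a Grin2b intronic peak (chr6:135865867-135866145), 307.5 kb from the 5′ end of the gene. The controls held 10.2 to 31.6 scaled counts (mean 17.3 ± 8.22) and the KCl 1 h libraries 8.63 and 1.15, both below the controls. The log2 fold change of -1.96 (SE 0.55, adjusted p = 0.01918) rested on KCl 1 h B, without which it was -0.97 (adjusted p = 0.5504). In a direct comparison at 1 h, BDNF exceeded KCl by 2.54 (adjusted p = 0.001639). That comparison also uses KCl 1 h B and was not run without it.

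Among promoter peaks, only that of Grin2b had a call against controls that held under every alternative. Grin1 had higher RNA at each time of both stimuli but no promoter call. For these reasons the 250 bases upstream of the annotated 5′ end of Grin2b and Grin1 are shown, at chr6:136173512-136173761 and chr2:25319188-25319437. Of the 32851 RefSeq promoters, searched over the 250 bases before the start, 17.8% held the CRE half-site, 6.75% the AP-1 motif, 1.55% the CRE and 0.536% the EGR motif.
Grin2b upstream: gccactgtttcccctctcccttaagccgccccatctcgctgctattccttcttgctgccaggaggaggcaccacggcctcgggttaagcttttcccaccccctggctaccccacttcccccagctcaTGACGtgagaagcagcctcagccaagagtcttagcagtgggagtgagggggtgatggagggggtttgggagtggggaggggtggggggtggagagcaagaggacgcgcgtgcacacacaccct
Grin1 upstream: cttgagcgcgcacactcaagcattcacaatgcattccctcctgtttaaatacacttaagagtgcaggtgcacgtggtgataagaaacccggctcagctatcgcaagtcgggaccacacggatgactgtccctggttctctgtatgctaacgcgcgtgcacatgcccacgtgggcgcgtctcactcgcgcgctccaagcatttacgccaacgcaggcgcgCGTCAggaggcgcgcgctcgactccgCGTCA
The Grin2b stretch held 1 half-site on the printed strand, starting at -123 from the start, and the Grin1 stretch held 2 on the opposite strand, with the first base as printed at -31 and -5. No other motif searched was found in either.

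The Grin2b promoter peak (chr6:136173267-136173843) opened with BDNF. Controls held 47.9 to 76.5 scaled counts (mean 68.3 ± 10.9), and BDNF libraries 121 and 130 after 1 h, 124 and 99.6 after 6 h and 78.3 and 90.7 after 10 h, all above the controls. The change at 10 h of BDNF was not called. KCl libraries held 66.6 and 53.3 after 1 h, 84.3 and 78.7 after 6 h and 61.4 and 72.0 after 10 h. The KCl pair at 6 h also lay above every control, but none of the 3 times of KCl was called. The log2 fold change with BDNF was 0.87 at 1 h (SE 0.18, adjusted p = 9.86e-05), a call that held under each of the 12 alternatives. At 6 h it was 0.69 (adjusted p = 0.005584), which failed without BDNF 6 h A (0.54, adjusted p = 0.2874) and against controls of the same time (adjusted p = 0.1845). BDNF exceeded KCl at 1 h by 1.08 (adjusted p = 3.941e-04). In RNA, Grin2b was not called with BDNF at 1 or 6 h.

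The Grin1 promoter peak (chr2:25318713-25319423), the only peak at that gene, was not called in any group. Its controls held 37.5 to 69.3 scaled counts (mean 54.7 ± 12.4) and its stimulated libraries 44.2 to 66.7, with log2 fold changes of -0.18 to 0.24. The Grin1 transcript was higher in all 6 stimulated groups, so the readouts at this gene differed in whether a change was called, and a change in accessibility within their spread was not detectable here.

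The other promoter calls against controls each depended on the scaling or on single libraries. The Grin3a promoter peak (chr4:49844800-49846089) had log2 fold changes of 0.35 at 1 h of BDNF (adjusted p = 0.03212), 0.40 at 1 h of KCl (adjusted p = 0.02367) and 0.36 at 10 h of KCl (adjusted p = 0.07166), and none of them held under TMM or DESeq2 scaling. Its call at 1 h of BDNF was also lost without either BDNF 1 h library (adjusted p = 0.1751 without A and 0.219 without B), that at 1 h of KCl without KCl 1 h B (0.4772), and both calls at 1 h against controls of the same time (0.2167 and 0.1899). That at 10 h of KCl was lost without KCl 10 h A (0.4683), KCl 10 h B (0.1651) or control 10 h A (0.152). The Gria4 promoter peak (chr9:4795501-4796513) gave 0.32 at 1 h of KCl (adjusted p = 0.06283), and its adjusted p was 0.4354 under TMM scaling, 0.6102 under DESeq2 scaling, 0.1469 against controls of the same time, 0.2541 and 0.3393 without KCl 1 h A or B, and 0.1047 and 0.1646 without control 6 h A or B. The Grin2a promoter peak (chr16:9993353-9994279) gave 0.58 at 1 h of BDNF (adjusted p = 0.06131) and -0.70 at 1 h of KCl (adjusted p = 0.07333), and the direct difference at 1 h was 1.28 (adjusted p = 5.837e-04). Its call with BDNF was lost without BDNF 1 h A (adjusted p = 0.3741), BDNF 1 h B (0.1691) or control 1 h A (0.1633) and under DESeq2 scaling (0.1011), and that with KCl against controls of the same time (0.5424) and without KCl 1 h A (0.2574), KCl 1 h B (0.4061), control 6 h A (0.119), control 10 h A (0.1164) or control 10 h B (0.1068). The Gria2 promoter peak (chr3:80802621-80803241) gave -0.48 at 6 h of KCl (adjusted p = 0.07958), a call lost without KCl 6 h A (0.3604), KCl 6 h B (0.2541), control 1 h A (0.1162), control 1 h B (0.105) or control 6 h A (0.1232), or against controls of the same time (0.174). The Gria1 promoter peak, the second Grin2a promoter peak and the other 2 Grin2b promoter peaks, which also cover a promoter of Gm26653, were not called against controls. At the second Grin2a promoter peak controls held 58.7 to 75.8 scaled counts. Every BDNF library lay above them, at 76.3 to 95.0, and each KCl pair overlapped them. Its change at 1 h of BDNF passed with no filter (0.47, adjusted p = 0.09825) and without control 10 h A (0.51, adjusted p = 0.07786).

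A further intronic peak, at Gria4 (chr9:4639209-4639716), was chosen after its values were seen. It is not among the named peaks, so how its calls fared under the alternatives is not given here. With BDNF its log2 fold changes were 1.53 at 1 h (SE 0.24, adjusted p = 1.428e-07), 1.47 at 6 h (SE 0.24, adjusted p = 8.289e-07) and 1.55 at 10 h (SE 0.26, adjusted p = 2.93e-06). With KCl they were 0.18, 0.45 and 0.55, none of which passed, and BDNF exceeded KCl at 1 h by 1.35 (adjusted p = 8.141e-04). Gria4 RNA was lower with BDNF at 6 h and not called at 1 or 10 h. Peaks within a gene body were assigned to that gene by position alone, and no link between a peak and the RNA of the gene was tested.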

How the data were processed

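RNA reads were mapped by the authors with TopHat2 (mm10, GENCODE M16 transcripts), and the deposited values are a signal, gene counts divided by the DESeq2 size factor of each library. The counting program is not given in the sources used here. Whole reads were recovered for 100% of values within 0.01 and gave the depth. For ATAC, the authors used Bowtie2 and MACS2, the latter on each sample, and kept those in at least 2 samples with DiffBind. The deposited ATAC values were taken as raw counts without the LOESS scaling of the study's methods, because they are whole numbers with a total that differs between libraries, although the table is named as normalised. If they had been scaled before, the scaled counts and tests here would rest on values scaled again. The authors' tables of genes and peaks hold their fold changes and p-values, of which none was used, and the gene table gave 24184 gene names (GENCODE M21 gave 2019, and 506 had none).

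Log2(value + 1) was tested with limma 3.58.1 (trend and robust options) and ATAC counts with edgeR 4.0.16 (glmQLFit robust, glmQLFTest) with LOESS offsets, both two-sided, in R 4.3.3. Each fit had 7 levels, with the 6 controls as 1 level, as in the study, and the tests between control times had 9. The SE of an edgeR log2 fold change was computed as |log2 fold change| over the square root of F. Alternatives were TMM and DESeq2 1.42.0 scaling, edgeR and DESeq2 on recovered reads, pseudocounts of 0.5 and 5, no filter, controls of the same time, a threshold of 0.01, a replicate block, gene length, and leaving out each library. Scripts were tested on simulated data.

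The genes, lists and tests were chosen with earlier results of these data known. Named genes are the 9 members, 2 nearest genes of each, and per list and stimulus the 2 called genes with the largest change, of which 1 is not reported here. Named peaks are the 3 with the largest change per stimulus and each promoter peak. RefSeq promoters (GRCm38.p6) matched 4 of the 9 genes, and the sequences shown came from the genome.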

Additional observations from a re-analysis of the deposited data

Results flagged for a closer look

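In 23 groups of 6 control libraries (the 9 genes in RNA and 14 peaks in ATAC), a test for a single library far from the others, which chance passes in about 1 in 20 groups, found 1. The Grin3a promoter peak held 149.7 scaled counts in control 10 h A against 195 to 217 in the other 5 controls, a gap of 0.679 of the whole range.

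The level under a stimulus differed between neighbouring times, by limma and with adjustment over all genes, in 14 cases, each given as a log2 difference. The controls of each time were not subtracted. From 1 to 6 h of KCl the differences were -1.16 for Gria1 (adjusted p = 3.765e-08), -0.86 for Gria3 (4.571e-07), -0.40 for Gria4 (0.002871), -0.65 for Grin2d (0.005238) and -0.57 for Grin3a (1.542e-04), and 0.59 for Grin1 (0.00545), 0.97 for Grin2a (0.003008) and 0.36 for Grin2b (0.01519). From 6 to 10 h of KCl they were 0.75 for Grin3a (1.603e-04) and 0.29 for Gria3 (0.06096). From 1 to 6 h of BDNF they were 0.46 for Gria3 (0.001934), -0.39 for Gria4 (0.007261), 1.14 for Grin2a (0.002001) and 0.34 for Grin3a (0.02252).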

How the results depend on the processing

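Of the 45 calls of single genes against controls or between stimuli, 29 held under every alternative at the same threshold, and of the 22 calls of named peaks against controls 10 did. Peak differences between stimuli were not run under the alternatives. No called value changed sign, and the 3 of 702 gene values and 24 of 420 peak values that did (17 of 540 and 28 of 672 with a library left out) were called in neither fit. With 2 libraries per stimulated group, small changes rest on single libraries, and low counts limit Grin2a and the intronic peaks.

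The cause of the following shifts was not tested beyond the smaller number of samples or the stricter threshold that an alternative sets. For RNA, an adjusted p below 0.01 left 1 of 3 genes at 1 h of BDNF, 3 of 5 at 6 h of BDNF, 3 of 5 at 1 h of KCl, 2 of 5 between stimuli at 1 h, 3 of 5 at 6 h, and 1 of 2 from 6 to 10 h of KCl. Controls of the same time left 1 at 1 h and 3 at 6 h of BDNF. DESeq2 on recovered reads gave 1 instead of 0 from 6 to 10 h of BDNF and 1 instead of 2 from 6 to 10 h of KCl. For ATAC, the stricter threshold left 8 of 14 peaks at 1 h of BDNF and 0 of 4, 1 of 3 and 2 of 5 at 1, 6 and 10 h of KCl, and controls of the same time left 2, 1 and 3. TMM scaling gave 7 instead of 4 at 10 h of BDNF and 6 instead of 3 at 6 h of KCl.

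With each library left out in turn, gene counts ran from 1 to 4, 3 to 6 and 5 to 7 at 1, 6 and 10 h of BDNF, 5 to 6, 5 to 7 and 6 to 7 for KCl, and 2 to 4, 3 to 5 and 3 to 3 between stimuli. They ran from 3 to 4 and 0 to 0 between successive BDNF times, 6 to 8 and 1 to 4 between successive KCl times, and 0 to 0 between control times. The moves over 1.5 times were 1 without BDNF 1 h A, 3 without BDNF 6 h B, between stimuli at 1 h 2 without BDNF 1 h A, 3 without BDNF 1 h B and 2 without KCl 1 h B, at 6 h 3 without BDNF 6 h B, and from 6 to 10 h of KCl 4 without KCl 6 h A and 1 without KCl 6 h B or KCl 10 h A. Peak counts ran from 6 to 15, 5 to 8 and 3 to 6 for BDNF and 0 to 5, 1 to 3 and 2 to 6 for KCl. At 6 h of KCl the count was 1 without KCl 6 h A, and at 10 h it was 3 without control 1 h A and 2 without either KCl 10 h library.

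Whether the RNA letters A and B pair the libraries across groups is not settled here. The 36 correlations of the A libraries' deviations from their group means ran from -0.315 to 0.418, with 23 under 0.1. Control 10 h A was negatively correlated with every other A library (-0.315 with control 1 h A), while control 1 h A and control 6 h A gave 0.418. A tally of low correlations cannot decide the question, because letters assigned in reverse in a group would also give negative values. With the letter as a replicate block the counts were 3, 6 and 7 for BDNF, 5, 7 and 7 for KCl and 5, 6 and 3 between stimuli. The block added Grin2d at 6 and 10 h of KCl (adjusted p = 0.09175 and 0.06721), Grin1 between stimuli at 6 h (0.07572) and Grin3a at 6 h of BDNF (0.09798). For ATAC no paired analysis was possible because the columns carry no replicate number. With the longest transcript as the length, 81 of 91 shares and ratios moved by more than the SD of their own group. In stimulated groups that SD rests on 2 libraries.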
